A study of Mus musculus with 8 samples.

Results

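Transcripts of 7 genes of urothelial differentiation were measured in whole kidneys of E13.5 mouse embryos, in mutant-labelled RNA and in wild-type-labelled RNA. The genes are the uroplakins Upk1a, Upk1b, Upk2, Upk3a and Upk3b and the basal genes Trp63 and Krt5. They were chosen by name from 17305 named genes on the array, and their array probes were found through the RefSeq accession of each non-control probe. This gave 9 probes of the 41174 on the array, with 2 probes each for Upk1a and Trp63 and 1 probe for each other gene. The tested animals are labelled UB HDAC1,2-/-, which stands for loss of the histone deacetylases HDAC1 and HDAC2 from the ureteric bud (UB), and the animals they were set against are labelled wild type. All have a mixed CD1 and C57BL/6 background (labelled CD1 C57BL/6 mix) and were taken at E13.5. Each of 4 biological replicates is 1 mutant RNA and 1 wild type RNA on 2 two-colour arrays with the dyes exchanged, which makes 8 arrays. The labels name neither the driver of the deletion nor how many embryos gave 1 RNA, and since only the bud is targeted, the RNA also holds all other kidney cells. In such bulk RNA, fewer cells of a type and less RNA per cell cannot be told apart.

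Uroplakins are membrane proteins of the urothelium, the stratified lining of ureter and bladder. Upk1a and Upk1b are tetraspanins that pair with the single-span partners Upk2 and Upk3a, and the pairs assemble into rigid plaques on the surface of the umbrella cells. Upk3b can also pair with Upk1b, and both are known from mesothelium as well. The p53 family factor p63, made from Trp63, and keratin 5 mark the basal layer of stratified epithelia. The epithelium of the ureter derives, like the collecting ducts, from the ureteric bud.

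The RefSeq promoter table (GRCm38.p6) held 4 of the 7 genes, Upk1a, Upk3a, Upk3b and Krt5. Each window runs from 250 bases before the annotated start to 50 after it. The 3 windows below are those in which a searched motif was found, and capitals mark the matches.
Upk3a promoter: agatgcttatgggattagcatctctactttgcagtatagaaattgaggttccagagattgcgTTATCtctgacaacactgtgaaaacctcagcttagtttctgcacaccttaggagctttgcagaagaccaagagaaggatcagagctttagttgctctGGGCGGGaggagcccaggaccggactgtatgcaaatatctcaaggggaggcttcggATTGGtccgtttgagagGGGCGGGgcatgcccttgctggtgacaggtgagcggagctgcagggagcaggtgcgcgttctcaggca
Upk3b promoter: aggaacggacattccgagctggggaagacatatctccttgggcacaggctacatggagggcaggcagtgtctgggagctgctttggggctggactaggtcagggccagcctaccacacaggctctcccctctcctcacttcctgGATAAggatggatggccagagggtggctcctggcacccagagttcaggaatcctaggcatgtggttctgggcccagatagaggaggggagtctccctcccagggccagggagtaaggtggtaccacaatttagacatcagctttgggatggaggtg
Krt5 promoter: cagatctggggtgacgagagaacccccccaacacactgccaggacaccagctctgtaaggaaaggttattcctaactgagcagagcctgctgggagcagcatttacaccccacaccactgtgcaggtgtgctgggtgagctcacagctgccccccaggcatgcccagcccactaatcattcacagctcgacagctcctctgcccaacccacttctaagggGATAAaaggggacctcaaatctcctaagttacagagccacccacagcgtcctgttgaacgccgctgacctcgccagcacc
The Upk3a window is chr15:85016891-85017190 (+ strand), the Upk3b window chr5:136038246-136038545 (+ strand) and the Krt5 window chr15:101712856-101713155 (- strand). The motifs were searched on both strands.

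Matches to the GATA motif (GATAA), the core read by factors such as Gata3 of the bud, stand in all 3 of these windows. The Upk1a window, which was also searched, holds none. The matches begin 188 bases before the start in Upk3a (read on the minus strand), 106 before it in Upk3b and 30 before it in Krt5. In Krt5 the match runs on as GATAAA, which differs from the TATA box (TATAAA) only in its initial base. What reads it was not tested. Of 32851 promoter windows of this length, 25.4% hold this motif. Upk3a also holds the GC box (GGGCGGG) at 91 and 18 bases before the start, as do 25.6% of windows at 1 or more positions. It holds the CCAAT box (CCAAT) at 35 bases before the start on the minus strand, which 37.4% of windows hold. No match stood in these windows or in that of Upk1a to the TATA box (TATAAA, in 13.6% of windows), a forkhead motif (TGTTTAC, 3.65%), a grainyhead motif (AACCGGTT, 0.146%) or the PPAR-RXR direct repeat (0.0396%). None of these motifs overlaps another within the windows shown. The Upk1a window has 0 CpG dinucleotides, Upk3b 2, Krt5 6 and Upk3a 9, against a median of 7 over all windows. The arrays measure RNA and hold no reading of binding or chromatin at these windows.

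Signs below follow the dye labels. On all arrays the ratio was turned to mutant-labelled RNA over wild-type-labelled RNA. The authors' deposited table lists 496 selected entries with a ratio of unstated direction, and 309 of the 309 entries whose identifier has 1 probe are opposite in sign to the dye labels. The direction is therefore not settled, and all signs here would turn if that table is mutant over wild type. None of the 7 genes is among its entries. Hdac2, one of the targeted genes, had log2 ratios of 0.60, 0.60, 0.74 and -0.61 in replicates 1 to 4 (limma adjusted p = 0.757). Only the bud is targeted and the RNA is of whole kidney, so these values cannot decide the direction. Hdac1 is not analysed here.

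Replicate 2 stood apart in spread. The SD of its log2 ratios over all tested probes was 0.65, against 0.23, 0.28 and 0.28 in replicates 1, 3 and 4, and 9.93% of its probes differed at least 2-fold, against 0.38%, 1.1% and 1.07%. Per array, 81.8% to 95.8% of probes were well above background for mutant-labelled RNA and 78.9% to 97% for wild-type-labelled RNA. The lowest shares were those of 1 array of replicate 2. All 14 bud and collecting duct genes of a marker list were well above background on all 8 arrays in both RNAs.

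Signal over background differed between the probes. The bright Upk1a probe, the dim Upk1a probe, Upk2, the bright Trp63 probe and Krt5 were well above background on 8 of 8 arrays in both RNAs. Over the array, 31048 of 41174 probes met this and had values in at least 3 replicates. Upk3a was so on 8 arrays in mutant-labelled RNA and on 7 in wild-type-labelled RNA. Upk3b, on 5 and 7 arrays, and Upk1b, on 5 and 4, were close to background, at median spot signals over local background of 53.0 and 41.2 units for Upk3b and 28.2 and 26.5 units for Upk1b. The dim Trp63 probe was well above background on 0 of 8 arrays in either RNA, so no fold is given for it, and 8 of the 9 probes were tested.

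**Figure D1:**
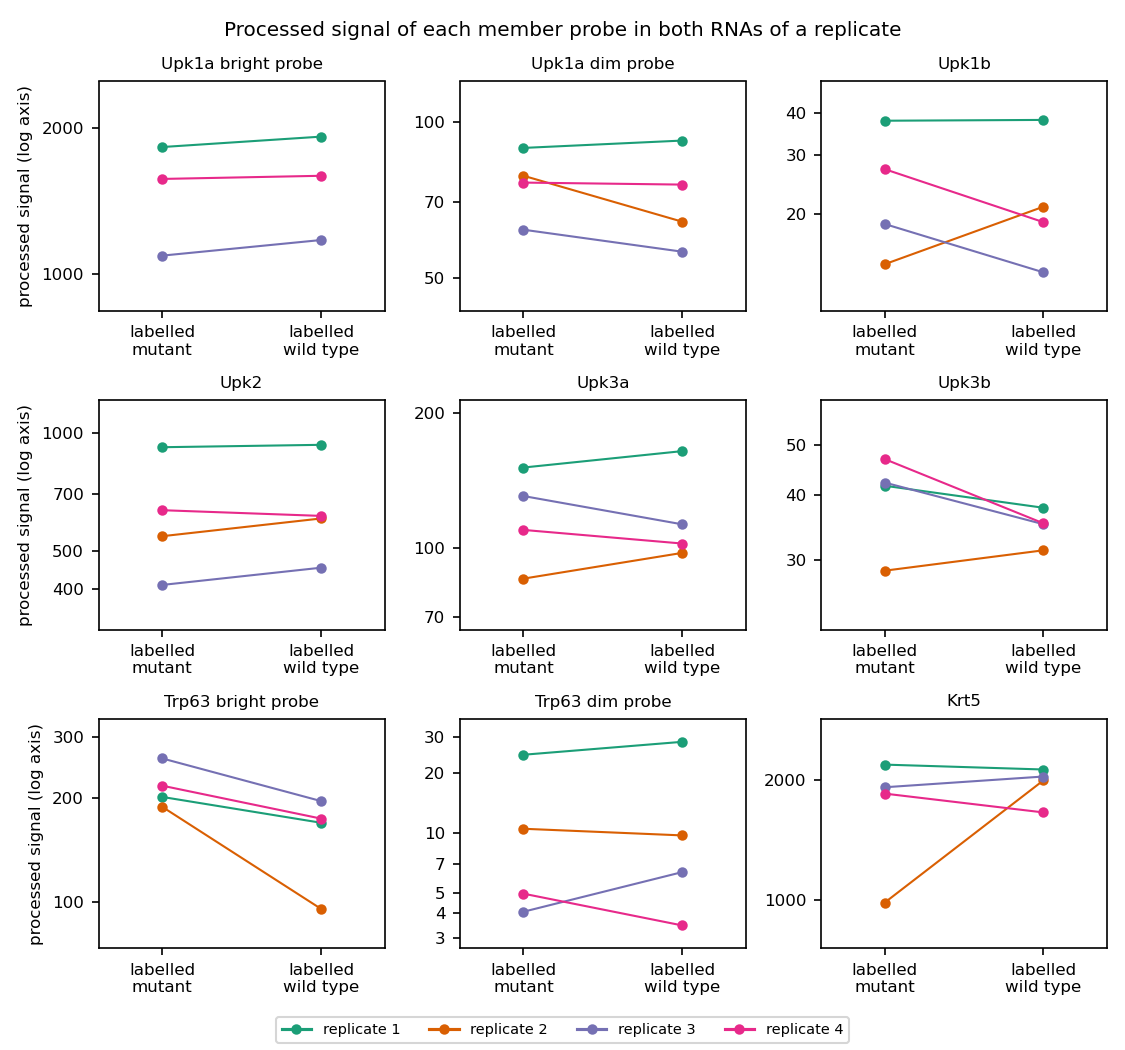
Processed signal (fluorescence units, log axis) of the 9 member probes in mutant-labelled RNA (left) and wild-type-labelled RNA (right), with 1 line per replicate and each point the geometric mean of both dye orientations. Krt5 in replicate 2 stands at 985 in mutant-labelled RNA, from 397 and 2446 on its 2 arrays. The bright Trp63 probe lies higher in mutant-labelled RNA in all 4 replicates. The panels have their own scales, and replicate 2 is missing for the bright Upk1a probe because 1 of its spots was an outlier.

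Over all 39522 probes tested, limma called 6 above 0 and 1 below 0 at an adjusted p under 0.05 (0.0152% and 0.00253%, or 0.0177% in either direction), and 0 of the 8 member probes were among them. At an unadjusted p under 0.05, 1 member probe stood higher and 0 lower, against 3.15% and 2.86% of all probes (6.01% in either direction). Of the 8, 4 had a mean log2 ratio above 0 and 4 below it, where 54% of all probes were above 0. The median of the members was 0.05 and that of all probes 0.02. The median SD over replicates was 0.21 for the members and 0.26 for all probes.

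Upk1a, the tetraspanin partner of Upk2, was nearly even between the RNAs on both of its probes. The bright probe had processed signals of 1828, 1090.2 and 1570.3 units in mutant-labelled RNA in replicates 1, 3 and 4, against 1920.4, 1174 and 1594 in wild-type-labelled RNA. The groups overlap, and each replicate was slightly lower in mutant-labelled RNA once both dye orientations were averaged. The mean log2 ratio was -0.07 ± 0.04 (SD, n = 3, replicate 2 left out for an outlier spot), with a 95% interval of -0.35 to 0.22 and a limma adjusted p of 0.817. The orientations differed, at a mean of 0.05 with the labelled mutant in Cy5 (above 0 on 2 of 4 arrays) and -0.25 in Cy3 (0 of 3). With normexp and loess the arrays ran the other way, at -0.23, -0.30, -0.39 and -0.17 in Cy5 and 0.21, 0.14 and 0.43 in Cy3. The dim Upk1a probe had processed signals of 88.9, 78.6, 61.9 and 76.3 units in mutant-labelled RNA, against 91.9, 64.1, 56.1 and 75.6 in wild-type-labelled RNA. It stood at a mean log2 ratio of 0.10 ± 0.15 (SD, n = 4; interval -0.15 to 0.35, limma adjusted p = 0.758), so the probes of this gene differ in sign while both intervals include 0.

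Upk1b, the tetraspanin that pairs with Upk3a, gave weak signals. They were 37.9, 14.2, 18.7 and 27.2 units in mutant-labelled RNA, against 38.1, 21.1, 13.46 and 19.0 in wild-type-labelled RNA. Replicates 3 and 4 were higher in mutant-labelled RNA, replicate 2 was lower, and the groups overlap. The log2 ratios were -0.0079, -0.27, 0.48 and 0.52, with a mean of 0.18 ± 0.38 (SD, n = 4; interval -0.21 to 0.58, limma adjusted p = 0.757). On 1 array of replicate 2 neither channel was positive and significant and the deposited ratio is listed at 0, so -0.27 averages that 0 with -0.54 on the other array and is closer to 0 than the processed signals of that replicate. Without replicate 2 the mean was 0.33. The slides differed, at a mean of -0.14 over replicates 1 and 2 on slide 1 and of 0.50 over replicates 3 and 4 on slide 2. With background correction by normexp and loess in place of the deposited ratio, the mean was -0.0025.

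Upk2, which pairs with Upk1a, was nearly even between the RNAs once both dye orientations were averaged. Its processed signals were 921, 545, 409 and 636 units in mutant-labelled RNA, against 934, 605, 453 and 615 in wild-type-labelled RNA, and the groups overlap. The mean log2 ratio was -0.07 ± 0.10 (SD, n = 4; interval -0.30 to 0.16, limma adjusted p = 0.784). The dye orientations disagreed. With the labelled mutant in Cy5 the ratio was above 0 on 4 of 4 arrays (mean 0.19 ± 0.09, SD), and with it in Cy3 on 0 of 4 (mean -0.32 ± 0.20, SD).

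Upk3a, the partner of Upk1b, also showed no shift that exceeded its spread. Its processed signals were 151, 85.2, 130.5 and 109.6 units in mutant-labelled RNA, against 164, 97.3, 112.7 and 102.1 in wild-type-labelled RNA. Replicates 1 and 2, on slide 1, were lower in mutant-labelled RNA and replicates 3 and 4, on slide 2, higher, and the groups overlap. The mean log2 ratio was -0.00042 ± 0.19 (SD, n = 4; interval -0.27 to 0.27, limma adjusted p = 0.999), with slide means of -0.16 and 0.16.

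Upk3b, the alternative partner of Upk1b, was higher in mutant-labelled RNA in 3 of 4 replicates. Its processed signals were 41.7, 28.6, 42.3 and 47.0 units in mutant-labelled RNA, against 37.8, 31.3, 35.1 and 35.3 in wild-type-labelled RNA, with replicate 2 the lowest in both RNAs. The groups overlap. The mean log2 ratio was 0.17 ± 0.23 (SD, n = 4; interval -0.12 to 0.47, limma adjusted p = 0.757), and 0.03 with normexp and loess. The related gene Upk3bl is not analysed here.

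**Figure D2:**
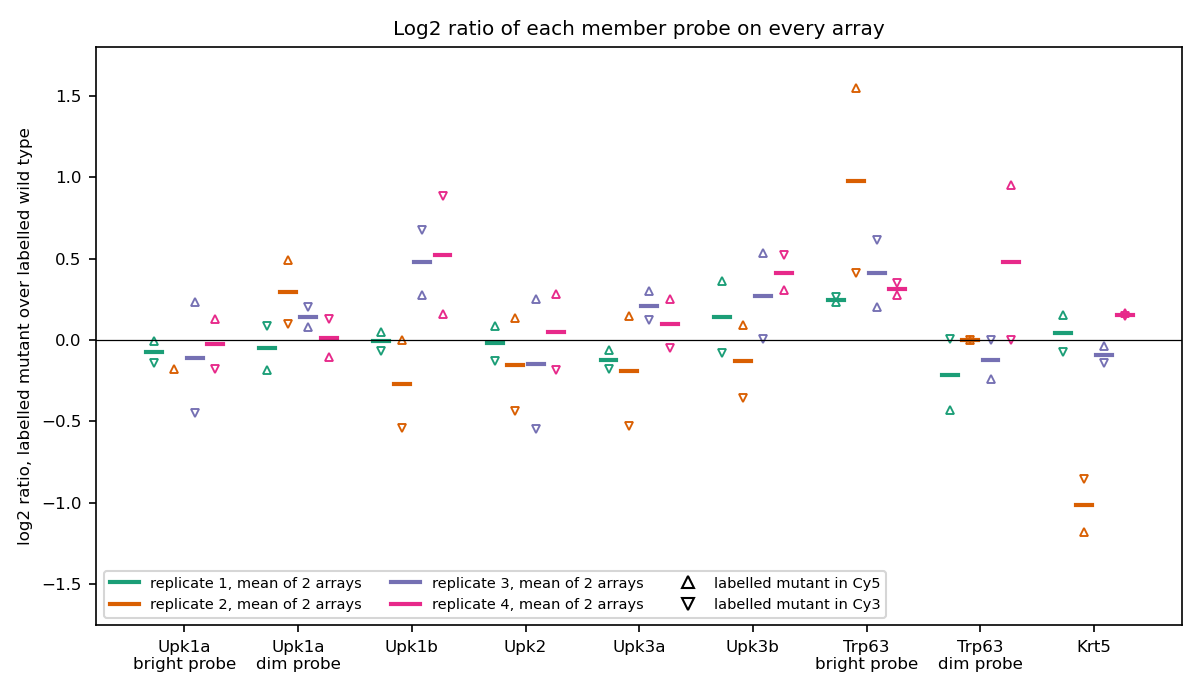
Log2 ratio of the labelled mutant over the labelled wild type for the 9 member probes on each array (triangles, pointing up for the labelled mutant in Cy5 and down for Cy3), with a bar for the mean of both arrays of a replicate. The bright Trp63 probe lies above 0 on 8 of 8 arrays, Upk2 lies on opposite sides of 0 in the dye orientations, and Krt5 is far below 0 in replicate 2 alone.

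Trp63, which encodes the transcription factor p63 of basal epithelial cells, had the highest ratio of the members. Its bright probe had processed signals of 202, 189, 261 and 217 units in mutant-labelled RNA, against 169.9, 95.8, 196 and 175 in wild-type-labelled RNA. The RNA labelled mutant was higher in each replicate, while the groups overlap. The log2 ratios were 0.25, 0.98, 0.41 and 0.32, with a mean of 0.49 ± 0.33 (SD, n = 4), with a 95% interval of 0.13 to 0.85. The difference did not pass over all probes (limma adjusted p = 0.707, unadjusted p = 0.0159; exact sign-flip permutation p = 0.125, the smallest that 4 replicates allow). The ratio was above 0 on 8 of 8 arrays, as for 2.25% of all probes, and in 4 of 4 replicates, as for 10.7%. By mean, 99% of all probes lay below it.

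The size of the Trp63 ratio depended on replicate 2 and on the normalization. Without replicate 2 the mean was 0.32. With normexp and loess it was 0.26 ± 0.14 (SD, n = 4; limma adjusted p = 0.744), above 0 on 6 of 8 arrays, which ranged from -0.14 to 0.63. The dye orientations then differed. With the labelled mutant in Cy5 the loess ratios were 0.18, 0.63, 0.61 and 0.56 in replicates 1 to 4. With it in Cy3 they were 0.01, 0.22, -0.02 and -0.14. In the deposited ratios the means of the orientations were 0.57 and 0.41, and those within slides 1 and 2 were 0.61 and 0.36. The dim probe of Trp63, not above background, does not bear on the ratio, and the relative Trp73 stood at log2 ratios of -0.06 and -0.07 on its 2 probes (limma adjusted p = 0.853 and 0.872).

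Krt5, the type II keratin of basal cells, was even in 3 replicates and lower in mutant-labelled RNA in replicate 2. Its processed signals were 2179, 985, 1913 and 1845 units in mutant-labelled RNA, against 2119, 1991, 2035 and 1655 in wild-type-labelled RNA. The groups overlap, and of these replicate means only that of replicate 2 in mutant-labelled RNA lies far from the others. The 2 arrays of replicate 2 differed in level in both RNAs. Mutant-labelled RNA stood at 397 units against 899 with the labelled mutant in Cy5, and at 2446 against 4410 with it in Cy3. The log2 ratios were 0.04, -1.02, -0.09 and 0.16, with a mean of -0.23 ± 0.54 (SD, n = 4; interval -0.74 to 0.28, limma adjusted p = 0.757). Without replicate 2 the mean was 0.04. In replicate 2, 7.64% of all probes lay below Krt5.

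Other keratins of stratified epithelia differed among themselves. Krt14, the partner of keratin 5 in basal cells, stood at 0.06, -0.48, 0.11 and 0.14 in log2 ratio, also lowest in replicate 2, with a mean of -0.04 ± 0.29 (SD, n = 4; limma adjusted p = 0.900). Krt15, another basal keratin, had a mean of 0.27 ± 0.23 (SD, n = 4; limma adjusted p = 0.757). Krt6a, a keratin of stressed epithelium encoded beside Krt5, stood at -0.46, -1.17, -0.90 and -0.52. Its mean was -0.76 ± 0.34 (SD, n = 4; limma adjusted p = 0.396), below 0 in 4 of 4 replicates, as were 5.66% of all probes. Krt6a was well above background on 6 arrays in mutant-labelled RNA and on 7 in wild-type-labelled RNA.

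**Figure D3:**
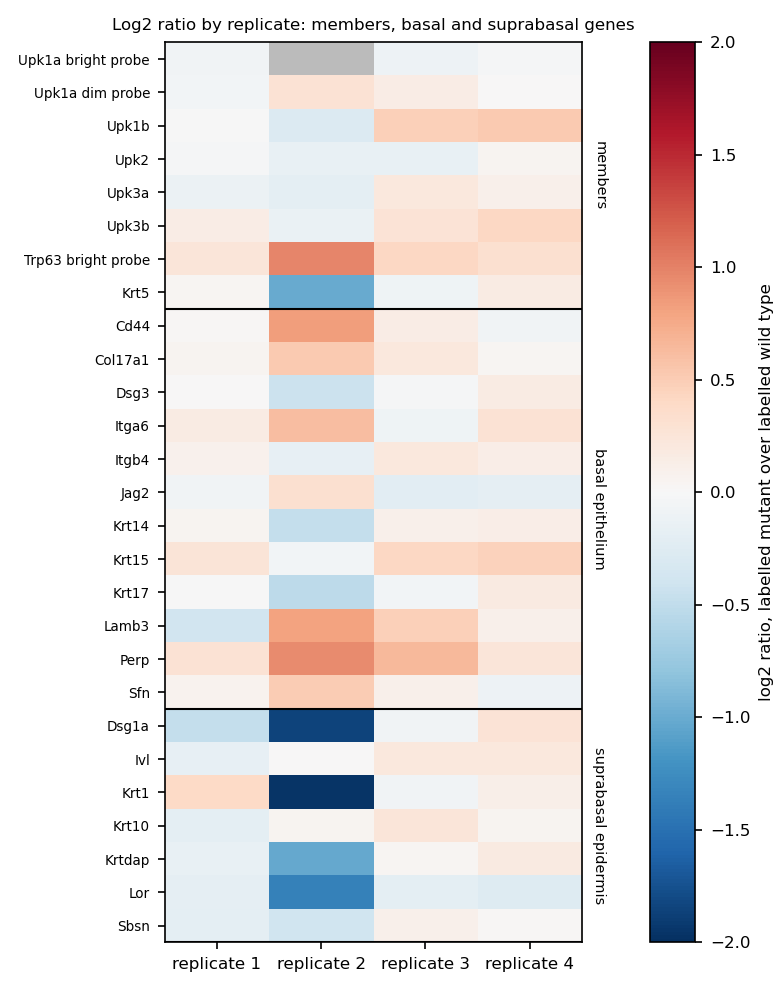
Log2 ratio of the labelled mutant over the labelled wild type by replicate (columns) for the 8 tested member probes, 12 of the 13 basal genes and 7 suprabasal genes (rows), with colour running from -2 to 2 and grey for a missing value. Replicate 2 holds the deepest colours, with Krt5, Krt1, Lor, Dsg1a and Krtdap low and Trp63 and Perp high in mutant-labelled RNA.

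Most listed genes of the outer epidermis were low in mutant-labelled RNA of the same replicate. Among 7 suprabasal markers, 5 were below 0 in replicate 2, and 6, 3 and 1 in replicates 1, 3 and 4. Their median log2 ratio was -1.02 in replicate 2, where that of all probes was 0.09, against -0.19, 0.03 and 0.11 in replicates 1, 3 and 4. Lor, a protein of the cornified envelope, stood at a mean of -0.50 ± 0.57 (SD, n = 4), Dsg1a, a desmosomal cadherin, at -0.53 ± 0.93 and Krtdap at -0.24 ± 0.54, with its other probe at 0.04. The median of these means was -0.24, and 0.02 without replicate 2. The summed processed signal of the list was 4464 to 6420 units in mutant-labelled RNA and 6201 to 9387 in wild-type-labelled RNA, and 6 of the 7 markers were well above background on 8 of 8 arrays in each RNA. Replicate 2 gave the lowest sum in mutant-labelled RNA and the highest in wild-type-labelled RNA. No marker was below background on all arrays. Their part in the Krt5 ratio was not tested.

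Basal genes split in replicate 2, with Perp at 0.95 and Cd44 at 0.84 (its brightest probe) on the high side, as Trp63 was, and Krt17 at -0.52 and Dsg3 at -0.43 on the low side, as Krt5 was. Of 13 basal genes tested, 9 had a mean above 0 and 0 passed the adjusted threshold, with a median log2 ratio of 0.21, against 0.04 and 58.4% above 0 over 17115 named genes. Without replicate 2 the median was 0.07. Perp, a desmosomal gene that p63 activates, stood at 0.53 ± 0.33 (SD, n = 4; limma adjusted p = 0.662), and Itga6, the integrin alpha 6 of hemidesmosomes, at 0.25 ± 0.29 (0.757). In replicate 2 the basal median log2 ratio was 0.50, against 0.06, 0.14 and 0.13 in replicates 1, 3 and 4.

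Regulators of urothelial differentiation and of its epithelial signals had 9 of 13 genes above 0 (median log2 ratio 0.16), and 0 passed. Shh, the hedgehog ligand of ureter epithelium, stood at 1.53 ± 0.29 (SD, n = 4; limma adjusted p = 0.0744), above 0 in 4 of 4 replicates. Foxa1, a forkhead factor of urothelium, stood at 0.88 ± 0.43 (0.429) and Grhl2, a grainyhead factor of epithelia, at 0.60 ± 0.16 (0.323). Other probes of Grhl2 reached down to -0.01. Pparg, a nuclear receptor of urothelial maturation, stood at -0.15 ± 0.32 (limma adjusted p = 0.757), the lowest of the list, with -0.63 in replicate 2. The median of the list was 0.29 without replicate 2 and 0.37 within slide 2. At an unadjusted p under 0.05, 6 of these 13 genes were higher, as were 6 of the 14 structural and transport genes, 9 of the 14 bud genes and 1 of the 13 basal genes, against 3.15% of all probes. Of the 9 mesothelium genes 2 were higher and 2 lower, and of the suprabasal and ureter mesenchyme genes 0 were either. Gata3 and Krt19 each count in 2 of these lists. The lists were chosen with earlier results of these data known, so an excess over all probes is no test.

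Other structural and transport genes of the urothelium, a list that includes simple epithelial keratins, had 13 of 14 genes above 0 (median log2 ratio 0.25), and 0 passed. Krt7, Krt18 and Krt8, which the bud epithelium also makes, stood at 1.23 ± 0.30, 1.14 ± 0.20 and 0.96 ± 0.13 (SD, n = 4; limma adjusted p = 0.118, 0.0984 and 0.109). Krt20, the keratin of umbrella cells, stood at 0.02 ± 0.04 (limma adjusted p = 0.938). Snx31, a sorting nexin found on uroplakin-bearing vesicles, stood at 0.0040 ± 0.30 (0.992).

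Bud and collecting duct genes had 11 of 14 above 0 (median log2 ratio 0.41), and Cdh16, the cadherin of kidney tubules, passed at 1.496 ± 0.16 (SD, n = 4; limma adjusted p = 0.0420). Cdh16 missed the threshold when each array was centred on its median, and the list then had 0 genes past it. The difference between the uroplakins and these bud genes was not tested.

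Markers of mesothelium, which can make Upk1b and Upk3b, were mixed, with 3 of 9 above 0 (median log2 ratio -0.06) and 0 past the threshold. Msln, which encodes mesothelin, stood at 0.88 ± 0.28 (SD, n = 4; limma adjusted p = 0.209), Krt19 at 0.88 ± 0.51 (0.530) and Nkain4 at -0.43 ± 0.12 (0.505). Krt19 also counts among the urothelial structural genes, so the list and its sum are not of mesothelium alone. The summed processed signal of the list was 40100 to 74324 units in mutant-labelled RNA and 49288 to 74946 in wild-type-labelled RNA, and 9 of 9 markers were well above background on 8 of 8 arrays in each RNA. Their part in the Upk1b and Upk3b ratios was not tested. Markers of ureter mesenchyme and smooth muscle had 5 of 10 above 0 (median log2 ratio -0.02, and 0.03 without replicate 2). The smooth muscle genes Cnn1 and Tagln stood at 0.16 ± 0.20 and -0.24 ± 0.43 (SD, n = 4; limma adjusted p = 0.757 for both), with the other Tagln probe at 0.26, and Tbx18, a factor of ureter mesenchyme, at -0.15 ± 0.19 (0.757).

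**Figure D4:**
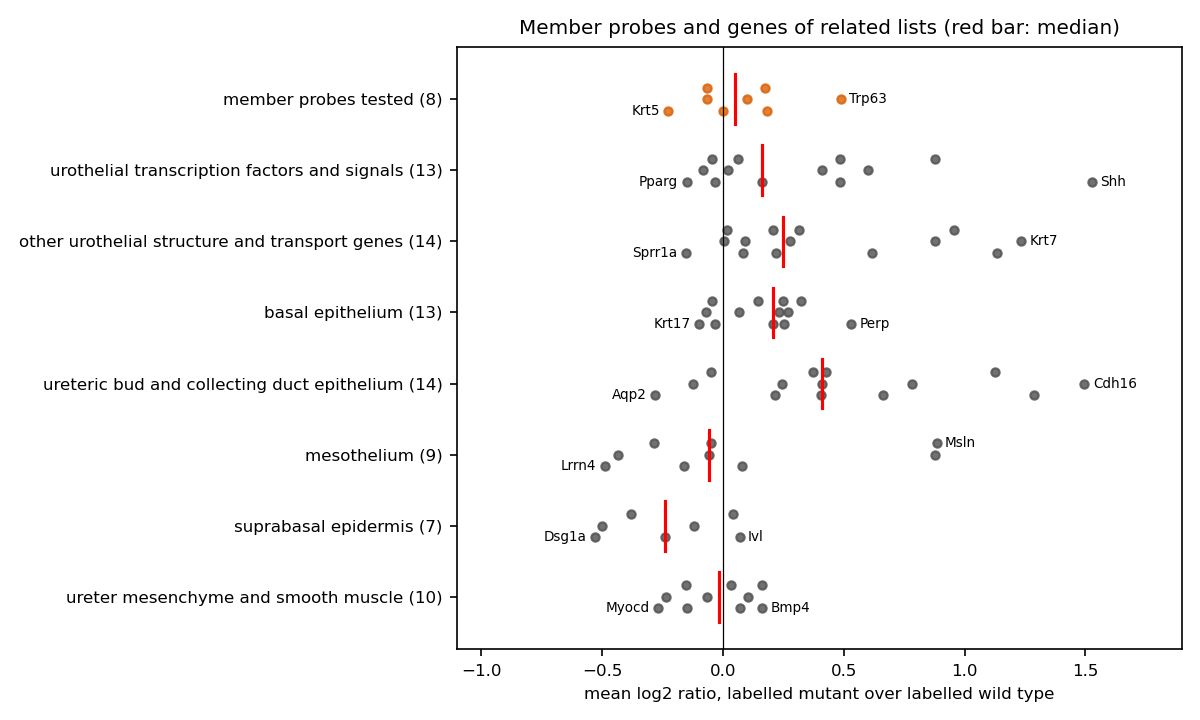
Mean log2 ratio of the labelled mutant over the labelled wild type (horizontal axis) for the 8 tested member probes and the genes of 7 lists (rows, number of genes in brackets), with each list's median as a red bar and its lowest and highest gene named. The member probes lie between -0.23 for Krt5 and 0.49 for Trp63, while Shh, Krt7 and Cdh16 lie above 1.

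**Figure D5:**
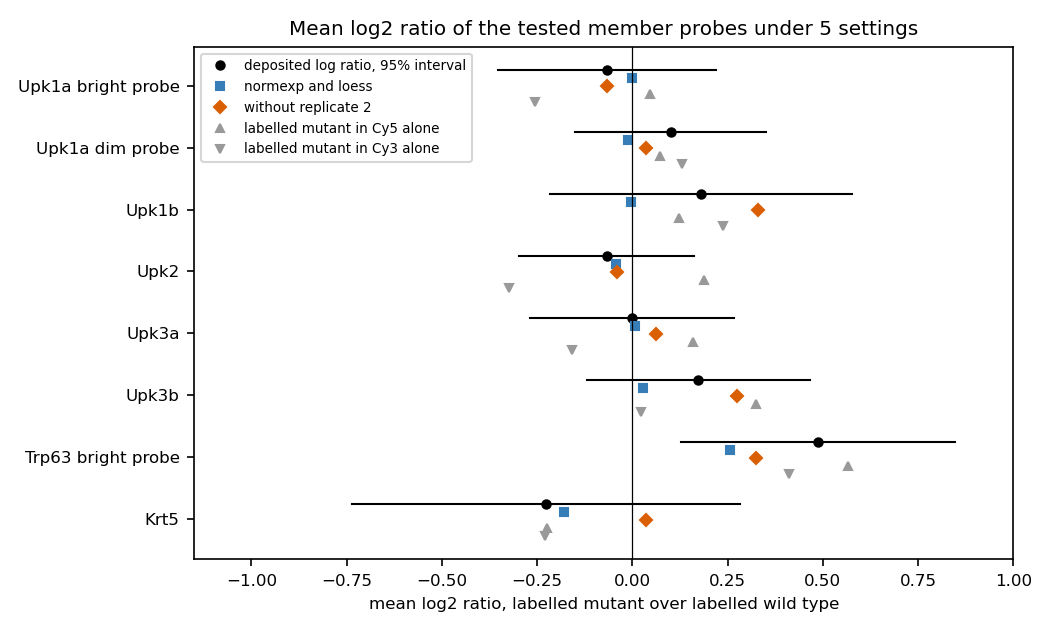
Mean log2 ratio of the 8 tested member probes under 5 settings, with the 95% interval of the deposited ratio as a line (n = 4 replicates, 3 for the bright Upk1a probe). The interval of Trp63 alone lies above 0, before any adjustment over probes, and Krt5 stands at 0.04 without replicate 2, against -0.23 with it.

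For likeness of pattern, each member's level over the 8 RNAs (log2 processed signal less the array median) was correlated with that of every named gene. These RNAs share arrays in pairs, so the values describe the libraries and no p is given. The highest r picked from every named gene over only 6 or 8 RNAs can also be high by chance. The highest Pearson r belonged to Olfr1408 and Defb22 for the bright Upk1a probe (0.999 and 0.996, over 6 RNAs), to Pcsk1n and Crybb2 for its dim probe (both 0.993) and to Slc2a2 and Snx8 for Upk1b (0.963 and 0.953). They belonged to Kcnc4 and Bmf for Upk2 (0.995 and 0.982), Scg2 and Inhbc for Upk3a (0.987 and 0.961) and Tmem158 and Batf3 for Upk3b (0.952 and 0.949). The bright Trp63 probe was most like Ptprj and Epha5 (0.992 and 0.986), and Krt5 most like Gsdmc and Cel (0.993 and 0.992).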

How the data were processed

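RNA of whole E13.5 kidneys, 0.5 µg per label, was measured on two-colour Agilent arrays. Per the file headers, the authors used Feature Extraction 10.5.1.1 on the scans. Its deposited ratio per spot is a log10 value, Cy5 over Cy3, from processed signals after background subtraction and dye normalization. It was turned here to log2 of labelled mutant over labelled wild type. The deposited intensity columns hold processed signals, and median spot and background brightness with no normalization. The deposited flags on spots have no other unit than 0 or 1. The authors' deposited table gives log2 ratios of features they selected.

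Outlier spots were left out, spots of a probe averaged, and the 2 arrays of a replicate averaged, so each replicate counts once and needs both orientations. Probes were kept if either channel passed the well-above-background flag on 4 or more of 8 arrays. Those with values in at least 3 replicates were tested against 0 with limma 3.58.1 in R 4.3.3 (lmFit, eBayes, two-sided), with Benjamini-Hochberg adjustment over all 39522 probes at 0.05. On simulated data, the check was that the fit returned the mean shifts put in, and it did not cover the calls. In the lists a gene's brightest tested probe stood for it. RefSeq accessions named 25097 of 41174 probes. The array design cites mm9, so gene positions are given only with the GRCm38.p6 promoter sequences.

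Arrays with the same replicate number hold the same RNAs, per the labels. The deviations of the 2 orientations from their means correlated at 0.58, 0.59, 0.25 and 0.67 in replicates 1 to 4. Their ratios themselves correlated at 0.29, 0.58, 0.22 and 0.46. The array number limits the precision, and no spot was saturated. Members and lists were chosen with earlier results of these data known. Genes named are the members, their relatives, Hdac2, and from each list those that pass or else the 3 of smallest p, and the 2 most alike genes per member. Cd44, Dsg3, Krt17, Krt1, Pparg, Krt20 and Snx31 were named after their values were seen. Alternatives were other normalizations, filters, probes, blocks, weights, slides, dye orientations and left-out replicates.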

Additional observations from a re-analysis of the deposited data

How the results depend on the processing

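No member probe passed the adjusted threshold under any of the alternatives that gave it a value. Trp63 (0.26 to 0.61, adjusted p 0.0680 to 0.999 over 18 alternatives) and Upk3b (0.0053 to 0.34 over 17) kept their sign in all of them. Values that changed sign lay near 0 or rest on few arrays. With normexp at an offset of 50 and loess, the dim Upk1a probe stood at -0.011, Upk1b at -0.0025 and Upk3a at 0.0079, and at an offset of 16 the dim Upk1a probe stood at -0.019 and Upk3a at 0.0088. Upk3a stood at 0.013 with array weights, 0.16 within slide 2 and 0.16 with the labelled mutant in Cy5 alone, where the bright Upk1a probe stood at 0.047 and Upk2 at 0.19. Upk1b stood at -0.14 within slide 1 and Krt5 at 0.034 within slide 2. With each replicate left out, Upk3a ranged from -0.071 to 0.063 (0.040 without replicate 1, 0.063 without replicate 2) and Krt5 from -0.35 to 0.036 (0.036 without replicate 2). The bright Upk1a probe has 1 replicate on slide 1 and got no value there or with slide as a covariate. Upk1b, Upk3a and Upk3b did not meet the strict filter.

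Over all probes, 7 passed in the deposited ratios. The count was 1 with loess at either offset, with slide as a covariate and with the labelled mutant in Cy5 alone, 2 with no filter, 13 with the strict filter, 3 with one probe per gene, 0 within slide 1, 452 within slide 2, 36 with the labelled mutant in Cy3 alone and 671 with array weights. The array weights fit takes the 8 arrays without a block, so it counts both dye-swapped arrays of a replicate as separate samples, and its calls and the Trp63 adjusted p of 0.0680 rest on that. A replicate block over the 8 single arrays (consensus correlation 0.30) gave 133. Leaving out each replicate gave 0 to 10, with 0 without replicate 1, 3 or 4. Of the listed genes, 1 passed in the deposited ratios. The number was 0 with loess at either offset, median centring, no filter, one probe per gene, slide as a covariate, slide 1 or Cy5 alone. It was 3 with the strict filter, 10 with the replicate block, 21 with array weights, 12 within slide 2, 5 with Cy3 alone, and 0 to 3 with a replicate left out. Under the replicate block Trp63 had an adjusted p of 0.487, and no member passed. The cause of these changes was not tested. The weak signals of Upk1b and Upk3b, and of the dim Trp63 probe, limit what can be said of them.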

Other observations

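Over the 8 RNAs, the plaque partners Upk1a (dim probe) and Upk2 had a Pearson r of 0.80 in log2 processed signal less the array median, and the bright Upk1a probe and Upk2 had 0.95 over 6 RNAs. The 2 Upk1a probes had an r of 0.95 over 6 RNAs. Upk1b and its partner Upk3a had 0.68, Upk1b and its other partner Upk3b 0.25, and the basal genes Trp63 and Krt5 -0.48. Uroplakins not described here as partners also gave high values, at 0.81 for Upk1b and Upk2, and low ones, at -0.18 for Upk2 and Upk3b. Partners are therefore not set apart by r. The RNAs share arrays in pairs, so these values describe the libraries only.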
